A study of Homo sapiens with 6 samples.

Results

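The genes examined here encode the core of Polycomb repressive complex 2 (EZH1, EZH2, EED and SUZ12), its cofactor JARID2, and the chromatin deubiquitinase BAP1 with its partners ASXL1 and ASXL2. The 8 genes were taken by name rather than by a measured value, though with earlier results of these data known. Each had 1 row among the 29810 genes of the deposited table, and all 8 passed the filter on low values. They were measured by mRNA-seq in Kasumi-1 cells, a human acute myeloid leukemia (AML) line with the t (8; 21) translocation and its RUNX1-RUNX1T1 fusion. Of the 6 libraries, 3 are labelled control, for which the study's methods give DMSO, the solvent of I3, and 3 came from cells incubated with 0.25 μM I3, an inhibitor of histone deacetylases (HDACs). Both lasted 48 h by the labels, while a figure legend of the study gives a longer time. Both groups are the same single cell line without any added genetic change. The labels do not say whether the libraries came from separate cultures, so the p-values measure only the spread between these libraries.

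Polycomb repressive complex 2 (PRC2) places methyl groups on lysine 27 of histone H3, a mark that keeps developmental genes silent. EZH2 or its relative EZH1 is the catalytic subunit. EED binds the finished mark, SUZ12 holds the complex together, and JARID2 is an accessory subunit that helps to bring it to chromatin. BAP1 removes ubiquitin from histone H2A, the mark set by Polycomb repressive complex 1 (PRC1), and needs an ASXL protein to be active. ASXL1 and ASXL2 are often mutated in AML with this translocation, and EZH2 loss occurs in myeloid disease. The question addressed is whether an HDAC inhibitor that promotes differentiation is accompanied by a different level of the mRNAs of these genes.

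None of the 8 genes passed the thresholds for a difference between I3 and control cells, and neither did any other tested gene (0% called by limma). At these thresholds the study, using DESeq, reported genes both higher and lower after I3. That test needs counts and was not repeated, nor was it run on reads rebuilt from the deposited values. Each mean of the 8 genes was between 1.06% and 8.72% higher after I3. The groups overlapped for all 8, and they did not overlap for 9.7% of the tested genes. EZH2 had the highest level and the smallest spread of them, whereas SUZ12 varied most between libraries as deposited, but less than EED, EZH1, BAP1 and ASXL1 with the trend in GC content removed. The 95% intervals placed each gene between a 0.864-fold and a 1.3-fold level after I3.

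The upstream sequences of the 4 core subunit genes are shown so that EZH2, known from dividing cells, can be read beside EZH1, known from resting cells, and beside the cell cycle genes described later. Each is the 250 bases before a RefSeq start site on GRCh38.p14, printed in the direction of the gene. Capitals mark 2 motifs read on both strands. The first is an E2F motif, taken as TTTCCCGC, TTTGGCGC, TTTCGCGC or TTTGCCGC, after the cell cycle factors that bind it. The second is the CCAAT box. The motifs did not overlap each other in these windows.
EZH2, minus strand, chr7:148884292-148884541: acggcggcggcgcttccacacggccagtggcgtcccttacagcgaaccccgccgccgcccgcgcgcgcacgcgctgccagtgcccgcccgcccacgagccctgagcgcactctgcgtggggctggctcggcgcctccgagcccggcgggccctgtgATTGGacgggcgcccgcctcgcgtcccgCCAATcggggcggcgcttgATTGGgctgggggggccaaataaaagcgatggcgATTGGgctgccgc
EZH1, minus strand, chr17:42745041-42745290: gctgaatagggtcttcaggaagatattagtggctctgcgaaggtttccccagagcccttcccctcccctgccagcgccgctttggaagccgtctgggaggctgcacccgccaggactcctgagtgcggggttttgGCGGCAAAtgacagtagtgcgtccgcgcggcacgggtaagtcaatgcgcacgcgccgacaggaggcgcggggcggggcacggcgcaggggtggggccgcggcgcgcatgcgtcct
SUZ12, plus strand, chr17:31936757-31937006: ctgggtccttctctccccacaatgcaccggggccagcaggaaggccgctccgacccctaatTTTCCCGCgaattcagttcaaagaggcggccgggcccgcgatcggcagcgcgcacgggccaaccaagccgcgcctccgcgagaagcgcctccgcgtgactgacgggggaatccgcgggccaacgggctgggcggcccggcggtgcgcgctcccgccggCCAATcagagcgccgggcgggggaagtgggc
EED, plus strand, chr11:86244503-86244752: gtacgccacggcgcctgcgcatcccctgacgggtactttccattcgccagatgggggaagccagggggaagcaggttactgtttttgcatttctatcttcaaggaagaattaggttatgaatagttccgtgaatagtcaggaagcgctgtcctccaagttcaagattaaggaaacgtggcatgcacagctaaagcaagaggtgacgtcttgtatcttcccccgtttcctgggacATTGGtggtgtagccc

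The EZH2 window shown held 4 CCAAT boxes, with first bases 94, 66, 47 and 13 bases before the start site. RefSeq gives EZH2 another start, whose window (chr7:148883486-148883735, minus strand) held 0 CCAAT boxes and had a GC content of 79.6%. At least 1 CCAAT box was found in 32.0% of the 35116 RefSeq windows of this length, and 4 or more in 0.874%. An E2F motif, found in 2.79% of the windows, stood 189 bases before the SUZ12 start and 115 bases before the EZH1 start. No E2F motif was found in either EZH2 window or in the EED window. Most of the EED window and all of the other EZH2 window lie inside the gene coordinates given below. They are therefore not upstream of the first annotated start. The EZH2 window shown had a GC content of 75.6% and the SUZ12 window 72.8%, whereas the EED window had 51.2%, against a median of 58.0% over all windows. RefSeq windows were matched for 7 of the 8 genes, all but BAP1, and JARID2 was the only further gene with a CCAAT box. A match is a string of letters and was not tested as a binding site.

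The libraries had the profile of a myeloid blast line. MPO, the peroxidase of primary granules, lay between 7740 and 8610 FPKM (fragments normalized to exon length and library total), and KIT, the stem cell factor receptor, between 198 and 225 FPKM. CD34 was between 28.9 and 38.8, CD33 between 10.5 and 12.1, RUNX1 between 30.6 and 35.0, and RUNX1T1 between 14.1 and 17.0 FPKM. Of 5 markers of other cell types, the T cell gene CD3E stayed at or below 0.179 FPKM, the fibroblast gene COL1A1 at or below 0.0115 FPKM, and MS4A1 and HBB had no row. EPCAM, an epithelial marker, was at 28.2 to 31.6 FPKM in every library, with a log2 fold change of 0.030. Its source was not tested. The libraries held 17500319 to 18193374 reads, rebuilt from FPKM and exon length, and no pair of libraries of a group was a copy. Libraries also differed in how gene levels tracked GC content. Across 12939 genes, the rank correlation between GC content and a library's deviation was negative in control 1 (-0.313), I3 1 (-0.232) and I3 3 (-0.446). It was positive in control 2 (0.446), control 3 (0.337) and I3 2 (0.262). Values after removal of this trend are given beside many of the results.

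Levels of the 8 genes can be set side by side because FPKM is per length. Averaged over the 6 libraries, EZH2 was highest at 34.7 FPKM, above 91.5% of the 12960 tested genes. BAP1 followed at 24.3 FPKM, then JARID2 at 21, SUZ12 at 18.9, ASXL1 at 17.6, ASXL2 at 10.2, EZH1 at 6.92 and EED at 3.13 FPKM. EED thus lay above 36.9% of tested genes. The ranges of EZH2 and BAP1 did not overlap, nor did those of ASXL1 and ASXL2, of ASXL2 and EZH1, or of EZH1 and EED. Between BAP1 and ASXL1 the neighbours did overlap. BAP1 exceeded JARID2 in 6 of 6 libraries, JARID2 exceeded SUZ12 in 5, and SUZ12 exceeded ASXL1 in 3.

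**Figure D1:**
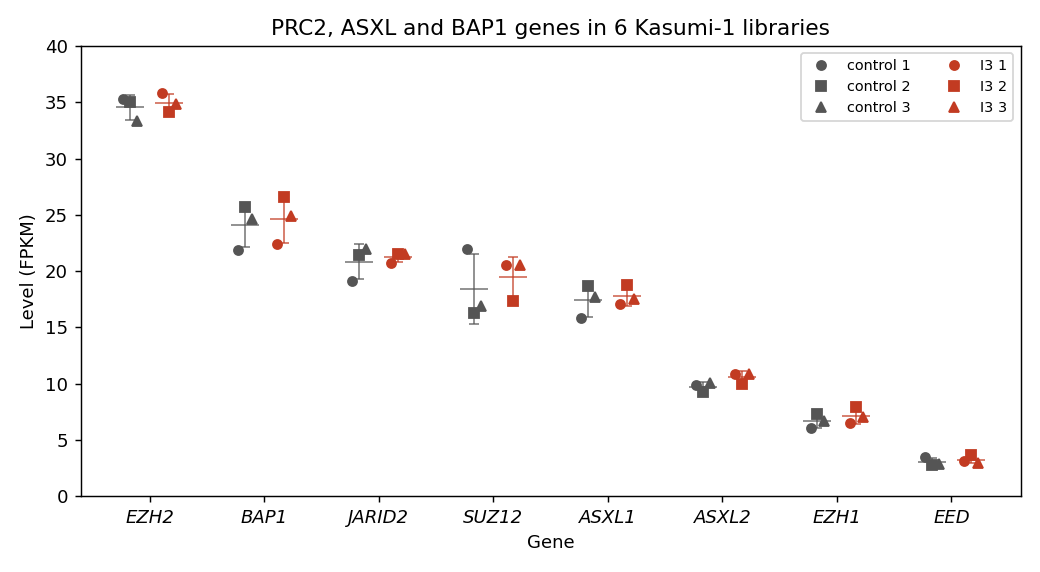
Level in FPKM (vertical axis, linear from 0) of each of the 8 genes, with 1 point per library, control in grey and I3 in red, and a bar for the mean ± SD of 3 libraries. EZH2 stands apart near 34.7 FPKM, EED lies lowest near 3.13 FPKM, and the 2 groups overlap for every gene.

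The order rests in part on exon length, since the length used for FPKM adds up the exons of all transcripts of a gene. For EED that length was 7016 bases, 3.16 times the 2223 bases of its principal transcript. If every EED read came from the principal transcript, its level would be 9.88 FPKM, close to 10.5 for EZH1 and 10.3 for ASXL2 on the same basis. EZH2 would be at 59.5 FPKM and SUZ12 at 27.6, so EZH2 stayed the highest of the 8 on both scales. JARID2 and ASXL2 hardly moved, with ratios of 1.05 and 1.01. ASXL1 would be at 34.2 FPKM, but the exon length behind its deposited value could not be recovered.

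EZH2 (ENSG00000106462, chromosome 7 from 148807383 to 148884321 on GRCh38) gave 35.3, 35.0 and 33.3 FPKM in control 1, 2 and 3. It gave 35.8, 34.1 and 34.8 FPKM in I3 1, 2 and 3. The values of both groups lay within the same narrow band, and I3 2 and I3 3 were below control 1 and control 2. The means were 34.5 ± 1.10 FPKM (SD, n = 3) and 34.9 ± 0.882 FPKM (SD, n = 3), from 8272 and 8492 reads. On the log2(FPKM + 0.5) scale the difference, I3 over control, was 0.015 (standard error 0.0518, 95% interval -0.11 to 0.14, adjusted p = 0.998 from limma). The spread within groups was smaller than that of EZH2 in 3.79% of the tested genes. The sign of its log2 fold change turned, to -0.018, after removal of the GC trend.

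EZH1 (ENSG00000108799, chromosome 17 from 42700275 to 42745049), the alternative catalytic subunit, gave 6.08, 7.29 and 6.71 FPKM in control cells and 6.47, 7.92 and 7.06 FPKM after I3. Replicate 2 was the highest of each group and replicate 1 the lowest. The means were 6.70 ± 0.604 and 7.15 ± 0.728 FPKM (SD, n = 3 each), with a log2 fold change of 0.088 (standard error 0.0969, 95% interval -0.14 to 0.32, adjusted p = 0.998 from limma). It was 0.025 without control 1, 0.15 without control 2 or without I3 1, 0.016 without I3 2 and 0.069 with the GC trend removed. The ratio of EZH2 to EZH1 was 5.81, 4.80 and 4.96 in control cells and 5.54, 4.30 and 4.93 after I3. EZH2 therefore exceeded EZH1 at least 4.30 times in each library, and the ratios of the groups overlapped.

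SUZ12 (ENSG00000178691, chromosome 17 from 31937018 to 32001045) gave 22, 16.3 and 16.9 FPKM in control cells and 20.5, 17.3 and 20.5 FPKM after I3. Control 1 held the highest value of all 6 libraries, and the other controls held the lowest. The means were 18.4 ± 3.15 and 19.4 ± 1.88 FPKM (SD, n = 3 each), with a log2 fold change of 0.085 (standard error 0.126, 95% interval -0.21 to 0.38, adjusted p = 0.998 from limma). Without control 1 it was 0.22, with an unadjusted p of 0.0487 in limma, and without control 2 it was 0.0054. In the fit without control 1, 11% of the tested genes had an unadjusted p under 0.05. Across the 6 libraries SUZ12 followed the GC trend of the library, with a Pearson correlation of -0.959 as a description. Its transcripts have a median GC content of 38.4%. In the libraries with a negative GC trend, control 1 at 22 FPKM was above I3 1 and I3 3 at 20.5. In those with a positive trend, I3 2 at 17.3 FPKM was above control 2 and control 3 at 16.3 and 16.9. Removal of the trend lowered the spread within groups from 0.192 to 0.0791 on the log2 scale and the log2 fold change to 0.014.

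EED (ENSG00000074266, chromosome 11 from 86244544 to 86278813) gave 3.47, 2.75 and 2.83 FPKM in control cells and 3.14, 3.63 and 2.98 FPKM after I3. I3 2 was the highest library and control 1 came next. The reads were 430, 344 and 347 against 392, 453 and 380, the fewest among the 7 genes whose reads could be rebuilt. The log2 fold change was 0.093 (standard error 0.112, 95% interval -0.17 to 0.36, adjusted p = 0.998 from limma), and it was 0.012 after removal of the GC trend. It was 0.18 without control 1, 0.040 without control 2, 0.056 without control 3, 0.15 without I3 3 and 0.022 without I3 2. MIR6755 lies within 0.9% of its exon length on the same strand. The ratio of SUZ12 to EED was 6.08 ± 0.236 in control cells and 6.06 ± 1.15 after I3 (SD, n = 3 each), with the lowest value, 4.75, in I3 2. Its size rests on the exon lengths used, which were 3.16 times the principal transcript for EED and 1.46 times for SUZ12.

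JARID2 (ENSG00000008083, chromosome 6 from 15246296 to 15522040) gave 19.1, 21.4 and 22 FPKM in control cells and 20.7, 21.5 and 21.5 FPKM after I3. Control 1 and I3 1 were the lowest of their groups, and the I3 values lay within the range of the controls. The means were 20.8 ± 1.56 and 21.2 ± 0.446 FPKM (SD, n = 3 each), and the log2 fold change was 0.030 (standard error 0.0678, 95% interval -0.13 to 0.19, adjusted p = 0.998 from limma). Without control 1 its sign turned, to -0.031.

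Of the BAP1 module, BAP1 (ENSG00000163930, chromosome 3 from 52401013 to 52410350) gave 21.9, 25.7 and 24.6 FPKM in control cells and 22.4, 26.6 and 24.9 FPKM after I3. The libraries of equal number lay close together, with replicate 1 lowest and replicate 2 highest in both groups. The log2 fold change was 0.032 (standard error 0.0860, 95% interval -0.17 to 0.23, adjusted p = 0.998 from limma). BAP1 has the highest GC content of the 8 genes, 58.3%. With the GC trend removed, the spread within its groups went from 0.119 to 0.0859 and its log2 fold change from 0.032 to 0.059.

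ASXL1 (ENSG00000171456, chromosome 20 from 32358330 to 32439319) gave 15.8, 18.7 and 17.7 FPKM in control cells and 17.1, 18.8 and 17.5 FPKM after I3. Control 1 was again the lowest library, and control 2 and I3 2 nearly coincided. The means were 17.4 ± 1.48 and 17.8 ± 0.871 FPKM (SD, n = 3 each), with a log2 fold change of 0.034 (standard error 0.0771, 95% interval -0.15 to 0.21, adjusted p = 0.998 from limma).

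ASXL2 (ENSG00000143970, chromosome 2 from 25733753 to 25878516) had the largest log2 fold change of the 8 genes with all 6 libraries as deposited. EZH1, EED or SUZ12 was above it in fits without control 1, control 2, I3 1, I3 2 or I3 3. It gave 9.86, 9.25 and 10.1 FPKM in control cells and 10.9, 10 and 10.9 FPKM after I3. I3 1 and I3 3 were above every control, but I3 2 was just below control 3. The means were 9.73 ± 0.430 and 10.6 ± 0.482 FPKM (SD, n = 3 each), from 6711 and 7416 reads. The resulting difference on the log2 scale was 0.11 (standard error 0.0654, 95% interval -0.038 to 0.27, adjusted p = 0.998 and unadjusted p = 0.121 from limma), and it ranged from 0.081 to 0.15 over the alternatives, with 0.088 when the GC trend was removed. A smaller change in either direction was seen in 66.6% of the tested genes.

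The ratio of ASXL1 to ASXL2 was 1.60, 2.02 and 1.76 in control cells and 1.58, 1.87 and 1.62 after I3, so ASXL1 was the higher paralog in each library. BAP1 amounted to 0.886 ± 0.0318 of the sum of ASXL1 and ASXL2 in control cells and to 0.867 ± 0.0611 after I3 (SD, n = 3 each). Both ratios overlapped between the groups. Their size rests on the exon length behind the ASXL1 value, which could not be recovered.

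**Figure D2:**
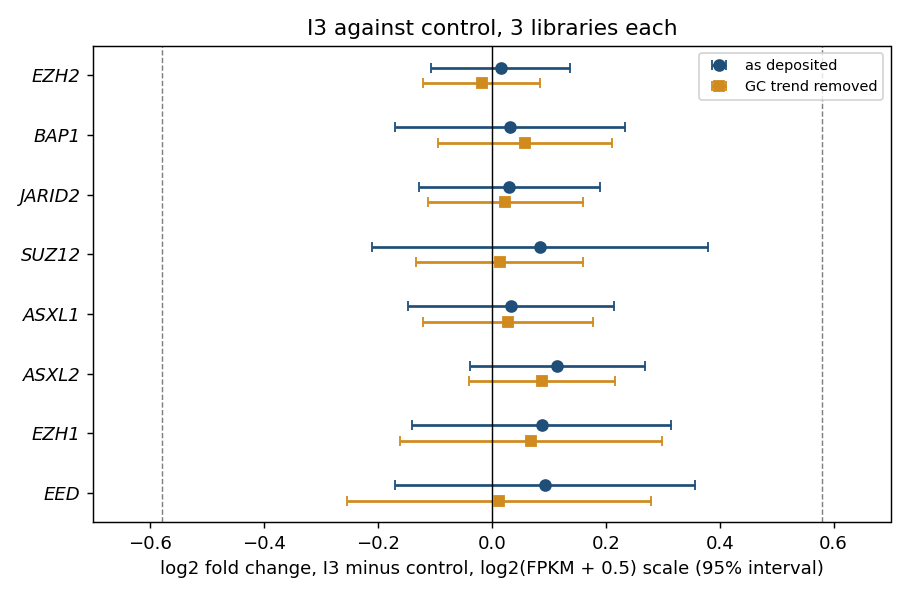
Log2 fold change of I3 over control (horizontal axis) with its 95% interval from limma for the 8 genes, as deposited (circles) and with the GC trend removed (squares). Dashed lines mark the fold threshold of 0.58, and every interval includes 0 and ends short of both lines.

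Read against the whole table, the absence of calls was not particular to these genes. limma called 0 of the 8 genes at an adjusted p under 0.05 with a log2 fold change of at least 0.58, and 0% of the 12960 tested genes. limma's voom on the rebuilt reads likewise called 0 of 13584 genes, with 660 at an unadjusted p under 0.05. At an unadjusted p under 0.05, 0 of the 8 genes passed, against 639 or 4.93% of the tested genes. Complete separation of the 3 I3 from the 3 control values was seen in 0 of the 8 genes, against 9.7% of the tested genes. The two-sided exact permutation p of the 8 genes was between 0.2 and 0.8, where 3 against 3 libraries cannot go below 0.1. All 8 log2 fold changes were positive, from 0.015 to 0.11, with a median of 0.059, while 54.2% of the tested genes were positive with a median of 0.011. With the GC trend removed, 7 were positive and the median was 0.026. Without control 1, 5 were positive, without I3 2, 6 were, and without control 3 or I3 1, 7 were. In RNA from whole cultures, a different number of cells of one kind and a different amount of RNA per cell cannot be told apart.

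Some of the 8 genes varied together between libraries. On the log2 scale EZH1, ASXL1 and BAP1 went together, with Pearson correlations over the 6 libraries of 0.923 for EZH1 and ASXL1, 0.951 for EZH1 and BAP1 and 0.928 for ASXL1 and BAP1. JARID2 went with them, with 0.688, 0.830 and 0.783 against EZH1, ASXL1 and BAP1. SUZ12 went the opposite way, with -0.682, -0.864 and -0.790 against those genes and -0.743 against JARID2. EED, ASXL2 and EZH2 followed less closely, and their largest correlations with another of the 8 were -0.520, 0.573 and -0.640. These are descriptions over 6 points that share library preparation, and GC content moved with some of them. EZH1, JARID2, ASXL1 and BAP1 have a GC content of 48.0% to 58.3%, against 38.4% for SUZ12. EED has the lowest, 36.9%, but correlated with SUZ12 at 0.405 and with the GC trend of the library at -0.291. With the trend removed, the spread within groups was larger for EED (0.144 to 0.154) and EZH1 (0.129 to 0.138). Control 1 deviated from the mean by 0.224 in SUZ12 and by -0.145 in BAP1, and after removal of the GC trend by 0.0931 and -0.102.

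**Figure D3:**
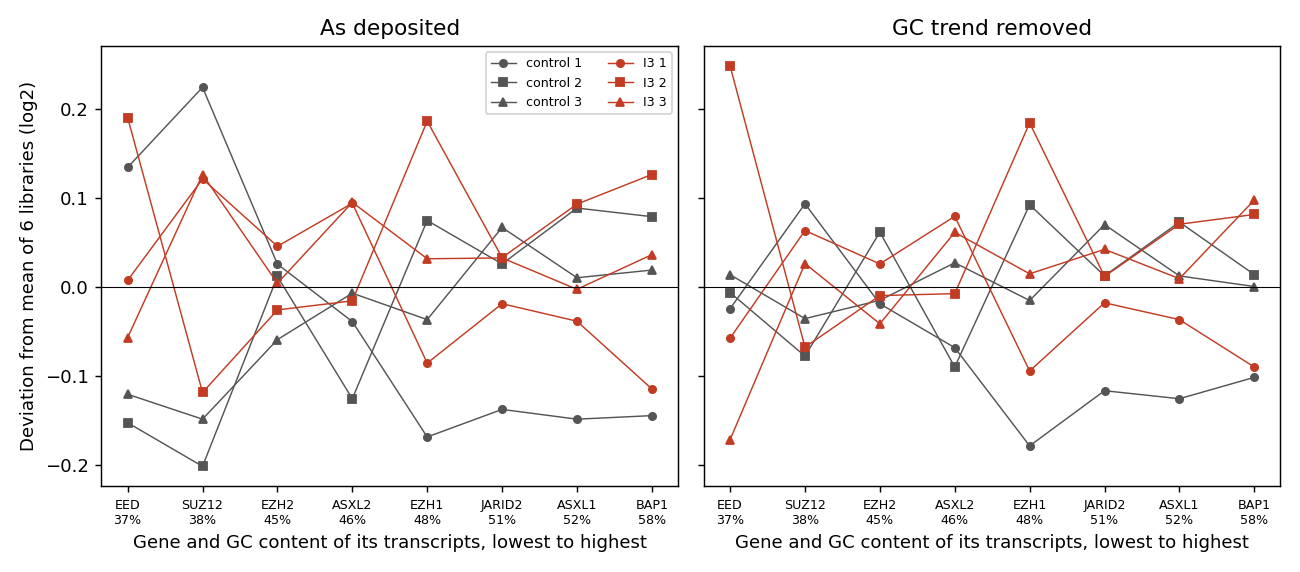
Deviation of each library from the mean of the 6 libraries (vertical axis, log2) for the 8 genes, ordered from the lowest to the highest GC content, as deposited (left) and with the GC trend removed (right), control in grey and I3 in red. On the left control 1 stands at 0.134 in EED, 0.224 in SUZ12, -0.169 in EZH1 and -0.145 in BAP1. The spread of SUZ12 narrows on the right.

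The genes whose levels most resembled EZH2 over the 6 libraries, among 6641 other genes with a mean of at least 5 FPKM, were TIMM9, TRMT10C and ELK3, with Pearson correlations of 0.983, 0.976 and 0.969. For ASXL1 they were SF3B4, PROSER2-AS1 and IQSEC1, with 0.999, 0.997 and 0.995. A correlation over 0.9 was reached by 25 genes for EZH2 and by 314 for ASXL1, so these names are only the top of longer lists. EZH2 hardly varied, with a smaller spread within groups in only 3.79% of the tested genes. How many unrelated genes would pass 0.9 over 6 libraries was not tested, so the names are a description.

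Other genes of the Polycomb system were compared in the same fit, by lists chosen by function. Of 9 tested PRC2 accessory genes, 0 were called, 6 had a positive and 3 a negative log2 fold change, and the median was 0.037. The histone chaperone RBBP4, which is part of the complex, was at 33.6 to 35.7 FPKM, within the range of EZH2, and its relative RBBP7 was lower, at 25.6 to 28.7 FPKM. The 2 accessory genes with the smallest p were MTF2 and PHF19, both of which help PRC2 to bind CpG-rich DNA. MTF2 had 18.2 ± 1.28 FPKM in control cells and 19.7 ± 0.953 FPKM after I3 (SD, n = 3 each, unadjusted p = 0.157 from limma), and its log2 fold change of 0.11 was 0.056 with the GC trend removed. PHF19 had 16.1 ± 1.74 and 14.8 ± 0.732 FPKM (SD, n = 3 each, unadjusted p = 0.239 from limma).

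Of 6 tested partners of BAP1 and the ASXL proteins, 0 were called and 1, OGT, was higher at an unadjusted p. That p was passed by 4.93% of the tested genes. OGT, which attaches N-acetylglucosamine to proteins, gave 20.9, 19.5 and 18.5 FPKM in control cells and 21.3, 22.1 and 22.1 FPKM after I3. Its groups did not overlap, as for 9.7% of the tested genes, although I3 1 exceeded control 1 by little. Its log2 fold change was 0.15 (standard error 0.0621, unadjusted p = 0.0449 and adjusted p = 0.998 from limma), and it ranged from 0.11 to 0.20 over the alternatives. FOXK1, a forkhead factor that binds BAP1, had a log2 fold change of 0.13 (unadjusted p = 0.174 from limma). With the GC trend removed it was 0.16 (unadjusted p = 0.0305 from limma). In that fit 5.88% of the tested genes passed the unadjusted p. Of 21 tested PRC1 genes, 0 were called or passed the unadjusted p, with 13 positive and 8 negative and a median of 0.032. PCGF3 had the smallest p among them, with 6.46 ± 0.638 FPKM in control cells and 7.42 ± 0.0998 FPKM after I3 (SD, n = 3 each, unadjusted p = 0.0516 from limma). With the GC trend removed PCGF3 passed the unadjusted p, as did 5.88% of the tested genes. Its log2 fold change was then 0.22 (unadjusted p = 0.0321 from limma). The groups of PCGF3 did not overlap as deposited, as for 9.7% of the tested genes. PHC3 came next, with a log2 fold change of 0.19. BMI1, the PRC1 subunit best known from blood stem cells, was at 5.31 to 7.70 FPKM.

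Of 16 tested genes that oppose Polycomb, 0 were called, with 6 positive and 10 negative and a median of -0.017. They include the lysine 27 demethylases KDM6A, at 5.78 to 6.29 FPKM, and KDM6B, at 4.04 to 5.06 FPKM, and the lysine 4 methyltransferase subunits. RBBP5 gave 8.94 ± 0.0823 FPKM in control cells and 9.86 ± 0.312 FPKM after I3 (SD, n = 3 each), and KMT2A gave 14.2 ± 0.679 and 15.5 ± 0.273 FPKM (SD, n = 3 each). Neither passed the unadjusted p (0.0507 and 0.0700 from limma), and in both the groups did not overlap. That held for 3 of the 16 genes, against 9.7% of the tested genes.

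Developmental genes that PRC2 classically silences were mostly near 0. Of 31 listed, 13 had no row, 13 had a row with a mean under 0.5 FPKM, and of these OLIG2 was listed at 0 in each library. PAX6 stayed at or below 0.0135 FPKM and GATA6 at or below 0.0145 FPKM, in control and I3 libraries alike. Of the 5 tested, 0 were called, and 1 had a positive and 4 a negative log2 fold change. MSX1, a homeobox gene, gave 4.91, 5.54 and 5.61 FPKM in control cells and 4.32, 3.79 and 2.64 FPKM after I3. Each I3 value was below each control value, and 9.7% of the tested genes had groups that did not overlap. Its log2 fold change was -0.54 (standard error 0.156, unadjusted p = 0.00987 and adjusted p = 0.812 from limma), between -0.67 and -0.36 over the alternatives. NKX2-5, a homeobox gene of heart development, had 2.15 ± 0.426 and 1.78 ± 0.424 FPKM (SD, n = 3 each, unadjusted p = 0.236 from limma), and its log2 fold change of -0.22 was -0.12 with the GC trend removed. CDKN2A, which encodes cell cycle inhibitors, was at 2.97 to 4.97 FPKM with overlapping groups, and CDKN2B was at or below 0.0141 FPKM.

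EZH2 is known to follow proliferation, so 6 cell cycle genes were read beside it. Of these, 0 were called, and PCNA lay between 159 and 166 FPKM and MKI67 between 56.5 and 62.5 FPKM over the 6 libraries. E2F1, a transcription factor of S phase entry, gave 19.9, 23.8 and 20.8 FPKM in control cells and 18.8, 19.7 and 16.6 FPKM after I3. Its groups did not overlap, as for 9.7% of the tested genes, though I3 2 was just below control 1. Its log2 fold change was -0.22 (standard error 0.0905, unadjusted p = 0.0436 and adjusted p = 0.998 from limma), and it was -0.17 with the GC trend removed. TOP2A, the topoisomerase of dividing cells, had a log2 fold change of 0.036 (unadjusted p = 0.551 from limma), which turned to -0.033 with the GC trend removed.

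**Figure D4:**
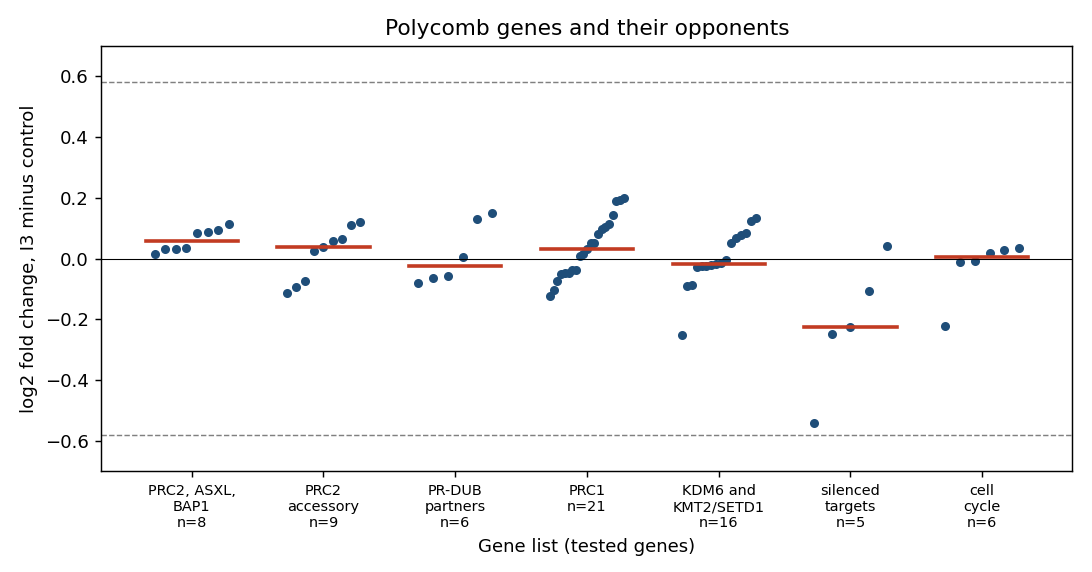
Log2 fold change of I3 over control (vertical axis) of each tested gene in 7 lists, with 1 point per gene and a red bar for the median of the list. Points lie within 0.58 in either direction (dashed lines), and MSX1 at -0.54 is the farthest from 0. The list labelled silenced targets shows only the 5 tested genes, each with a mean of at least 0.5 FPKM, and not those near 0. That label names genes that PRC2 classically silences, and their silencing in these cells was not measured.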

How the data were processed

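The authors deposited 1 table of FPKM values, fragments normalized to exon length and library total, with 1 column per library and without counts. The submitters' processing notes name Trimmomatic, HISAT2, Cufflinks and HTSeq and the build hg38, without their versions or roles, and the annotation was not stated there. The file name gives the compound as I13, the labels and the paper as I3. All 6 columns were mapped by name, and 0 were left out.

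Identifiers were matched to GENCODE release 29 on GRCh38 (29703 of 29810). FPKM multiplied by exon length gave whole reads within 0.1 read in every library for 95.8% of the 26519 genes above 0 with a length, which gives the depth. limma 3.58.1 in R 4.3.3 (lmFit, eBayes with trend) compared 3 I3 with 3 control libraries on log2(FPKM + 0.5), two-sided, over 12960 genes with a mean of at least 0.5 FPKM, with Benjamini-Hochberg adjustment over all of them. The study's thresholds were kept (adjusted p under 0.05, absolute log2 fold change of 0.58 or more). The study's own test needs counts and was not run on the rebuilt reads. A fold change on this scale understates that of low genes. Exact permutation tests used scipy 1.17.1. GC content is the median over a gene's transcripts, and its trend was removed per library by lowess (span 0.3). The fit was tested on simulated data. Samples were grouped by title.

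The 8 genes and the lists were chosen with earlier results of these data known. Named besides the 8 genes are the 2 tested genes of each list with the smallest p, the identity markers and the 3 genes most like EZH2 and ASXL1. RBBP4, RBBP7, BMI1, KDM6A, KDM6B, OLIG2, PAX6, GATA6, CDKN2A, CDKN2B, PCNA and MKI67 were added after their values were seen. Alternatives were pseudocounts of 0.1 and 1, no minimum and a minimum of 1 FPKM, TPM, median-of-ratios and quantile scaling, GC removal, no trend, voom on rebuilt reads with a mean of at least 10, the replicate number as a block and each library left out.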

Additional observations from a re-analysis of the deposited data

How the results depend on the processing

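Over 17 alternatives, none of the 8 genes passed the thresholds, with a smallest adjusted p of 0.452 from limma. Of the 136 log2 fold changes these gave, 128 kept their sign and 8 turned it, all of them small. EZH2 turned to -0.018 with the GC trend removed, and ranged from -0.011 to 0.032 with single libraries left out. In the same leave-one-out fits EZH1 ranged from 0.016 (without I3 2) to 0.15 (without I3 1), and EED from 0.022 (without I3 2) to 0.18 (without control 1). JARID2 ranged from -0.031 to 0.071, ASXL1 from -0.032 to 0.086 and BAP1 from -0.033 to 0.097, with the lowest values without control 1. Without I3 2, ASXL1 was at -0.0041 and BAP1 at -0.023. The number of the 8 genes at an unadjusted p ranged from 0 to 1, the 1 being SUZ12 without control 1. In that fit 11% of the tested genes passed the unadjusted p. Over all genes, 5 were called without a minimum FPKM, and 0 to 2 with single libraries left out. These were called without control 1 (1), I3 1 (2) and I3 2 (1). The deviations of libraries with equal replicate numbers correlated at 0.0634, 0.151 and -0.0239. These deviations also carry the GC trend of each library, so they cannot show whether the libraries were paired. Control 2 correlated best with I3 2, but control 1 correlated better with I3 3 (0.101) than with I3 1. The replicate block gave 0 calls among the 8 genes and 0 over all genes, with 856 genes at an unadjusted p against 639 without it. Of the 7 genes with rebuilt reads EED had the fewest, 344 to 453 per library, and what depth adds to its spread was not tested.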
